A study of Mus musculus with 30 samples.

Results

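The genes examined here mark oligodendrocyte precursor cells and the steps by which these cells become oligodendrocytes. They are 10 genes, chosen by name and all found among the 16995 genes of the table: the receptor and surface genes Pdgfra, Cspg4, Cspg5 and Ptprz1, the transcription factor genes Olig1, Olig2 and Sox10, and Gpr17, Bcas1 and Enpp6, which mark committed precursors and newly formed oligodendrocytes. RNA came from the intermediate laminae of the cervical spinal cord, on the side denervated by a photothrombotic stroke of the right sensorimotor cortex in adult female C57BL/6 mice, taken at 4, 7, 14, 28 and 42 days post-injury (dpi). The control animals were sham-operated, with no illumination of the cortex, and are named Ctrl in the labels. All were adult animals picked for sequencing on quality criteria, and 29 of the 30 that were labelled had values: 5 per group, and 4 at 4 dpi, where A9-3 could not be used. The tissue was trimmed by hand and not sorted, so every value is a sum over all cell types of the dissected gray matter, and fewer cells of a type cannot be told apart from less RNA per cell.

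Oligodendrocyte precursors are spread through the gray and white matter of the adult spinal cord, where they keep dividing and can replace oligodendrocytes. They are held in the precursor state partly by platelet-derived growth factor, read by the receptor that Pdgfra encodes. Olig2 and Sox10 act through the whole lineage, from precursor to myelinating cell, whereas Gpr17, Bcas1 and Enpp6 come on as a precursor commits to differentiation. Several of the genes are also used outside the lineage: Cspg4 by pericytes, Pdgfra by perivascular fibroblasts, Ptprz1 by astrocytes, Cspg5 by astrocytes and neurons, and Sox10 by Schwann cells.

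The promoters are shown for both genes that rose between 14 and 28 dpi, Ptprz1 and Cspg4, and for both that held a match to a core motif of SOX factors, Olig2 and Enpp6. RefSeq windows on GRCm38.p6, each reaching from 250 bases before to 50 bases after a gene start, were matched for 5 of the 10 genes. The printed runs read 5′ to 3′ on the + strand, stop before the transcribed part, and are in lower case with the SOX core match (ACAAAG or ACAATG, on either strand) in capitals.
Ptprz1, chr6:22875252-22875501: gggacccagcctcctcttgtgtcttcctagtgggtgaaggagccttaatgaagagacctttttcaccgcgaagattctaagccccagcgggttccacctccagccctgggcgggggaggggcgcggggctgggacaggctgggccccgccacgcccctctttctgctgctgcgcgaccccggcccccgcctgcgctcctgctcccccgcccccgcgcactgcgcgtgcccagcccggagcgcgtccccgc
Cspg4, chr9:56864854-56865032: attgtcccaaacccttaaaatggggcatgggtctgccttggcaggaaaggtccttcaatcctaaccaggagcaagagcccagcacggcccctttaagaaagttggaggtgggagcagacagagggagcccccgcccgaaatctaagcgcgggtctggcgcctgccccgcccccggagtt
Olig2, chr16:91225300-91225549: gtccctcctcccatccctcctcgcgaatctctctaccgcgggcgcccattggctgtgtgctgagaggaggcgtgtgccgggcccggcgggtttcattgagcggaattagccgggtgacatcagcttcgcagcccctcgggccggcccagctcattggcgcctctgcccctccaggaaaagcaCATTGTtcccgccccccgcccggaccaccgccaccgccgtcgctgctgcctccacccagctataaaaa
Enpp6, chr8:46986637-46986886: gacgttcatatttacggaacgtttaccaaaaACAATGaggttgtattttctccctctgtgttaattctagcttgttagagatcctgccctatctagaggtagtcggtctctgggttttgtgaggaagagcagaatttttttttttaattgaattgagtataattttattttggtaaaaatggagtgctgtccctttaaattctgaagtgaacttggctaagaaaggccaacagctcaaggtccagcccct
Base composition differed widely among the 5 windows of 300 bases. GC content was 71.7% for Ptprz1, 65% for Olig2, 60% for Cspg4, 51% for Pdgfra and 40.3% for Enpp6, against a median of 52.7% over all 32851 windows. The ACAATG core occurred once for Olig2 and once for Enpp6, and 12.6% of all windows held it on either strand. ACAAAG, held by 18.7% of all windows, was in none of the 5. The E-box CANNTG, the short motif bound by factors of the Olig1 and Olig2 family, occurred 2 times for Pdgfra and not in the other 4 windows, whereas 72.3% of all windows held it. CAGCTG, a special case of the E-box that 16.3% of all windows held, was in none of the 5. These are letter matches in a short window and say nothing about binding.

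Expression is given as CPM, read counts scaled to library size, which the authors normalized and rounded to 0.1. Sequencing depth cannot be read from such values, and error is therefore judged only by the spread between animals, each a separate mouse by its label. The sum over all genes ran from 714597 to 2256910 CPM across animals, although the median gene varied only from 10.2 to 11.2 CPM. The 18S ribosomal RNA gene Rn18s-rs5 was among the genes that varied. Its mean was 37715 CPM in sham animals and 371406 CPM at 28 dpi, with single animals of the 28 dpi group between 44755 and 779160 CPM.

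Per kilobase of exon, the sham level was highest for Bcas1 (64.8 CPM per kb) and Olig1 (42.6 CPM per kb). Sox10 (10.99), Olig2 (10.5), Ptprz1 (7.62), Gpr17 (5.81) and Cspg5 (4.82) followed on the same scale, and Pdgfra (3.01), Enpp6 (2.54) and Cspg4 (1.06) were lowest. The order depends on the length used: per kilobase of the longest transcript Ptprz1 (13.5 CPM per kb) stood above Sox10 (12.1) and Olig2 (10.5), and Cspg5 (6.18) above Gpr17 (5.81). The spread between the 5 sham animals (coefficient of variation) was 7.84% for Cspg5 and 38.1% for Enpp6, and lay between these for the other 8 genes. Of the neighbours in the order by exon length, Sox10 and Olig2 did not differ beyond their spread, whereas Bcas1 and Olig1, and Olig1 and Sox10, stood well apart.

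Each time point was compared with sham in 1 limma fit of log2(value + 0.5) over all 29 animals. A gene passed at an adjusted p under 0.05 (Benjamini-Hochberg over 16995 genes), and was called a significantly differentially expressed gene (SDEG) if its fold change also exceeded 1.5. The paper uses the name SDEG for edgeR calls with a limit that it states as a log2 fold change of 1.5. The SDEG calls here are therefore not those of the paper. The question was whether the lineage changed in the denervated cord while axons sprout into it. Against sham, 0 of the 10 genes passed at 4, 7, 14 or 42 dpi, and 2 passed at 28 dpi: Ptprz1 was higher and Gpr17 was lower. None of the 10 was an SDEG against sham at any time point, where 16, 5, 1, 789 and 4 of all 16995 genes were, in order of time. Of all genes 24.9% passed at 28 dpi, so that the 2 of 10 were a share near that of the whole table. The background at 4, 7, 14 and 42 dpi was 0.106%, 0.0294%, 0.00588% and 0.0235% of all genes. Taken by direction, 11.9% of all genes were higher and 13% lower at 28 dpi. At an unadjusted p under 0.05 the counts among the 10 genes were 4, 1, 2, 4 and 5 over the time points in order, and 874, 992, 1973, 6548 and 2507 among all genes. The median log2 change of the 10 genes was -0.15, -0.10, -0.12, -0.12 and -0.21 at these time points, where that of all genes stayed within 0.01 of 0. At 42 dpi 9 of the 10 estimates lay below 0, with Ptprz1 as the exception. All share the same sham animals, so these signs are not separate observations. The sham animal A12-2 was the highest of its group for Sox10, Gpr17, Bcas1 and Enpp6, though not for the others below 0. With Rn18s-rs5 as a covariate 0 of the 10 genes, and 0 of all other genes, passed at 28 dpi. Ptprz1 was then at 0.22 (SE 0.096, limma adjusted p = 0.185) and Gpr17 at -0.36 (SE 0.142, adjusted p = 0.144). After a correction for transcript length and GC content 3 of the 10 passed there, where 25.6% of all genes did, and all 3 were lower: Gpr17 (-0.42, limma adjusted p = 0.00784), Cspg5 (-0.31, adjusted p = 0.00865) and Pdgfra (-0.24, adjusted p = 0.0272).

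**Figure D1:**
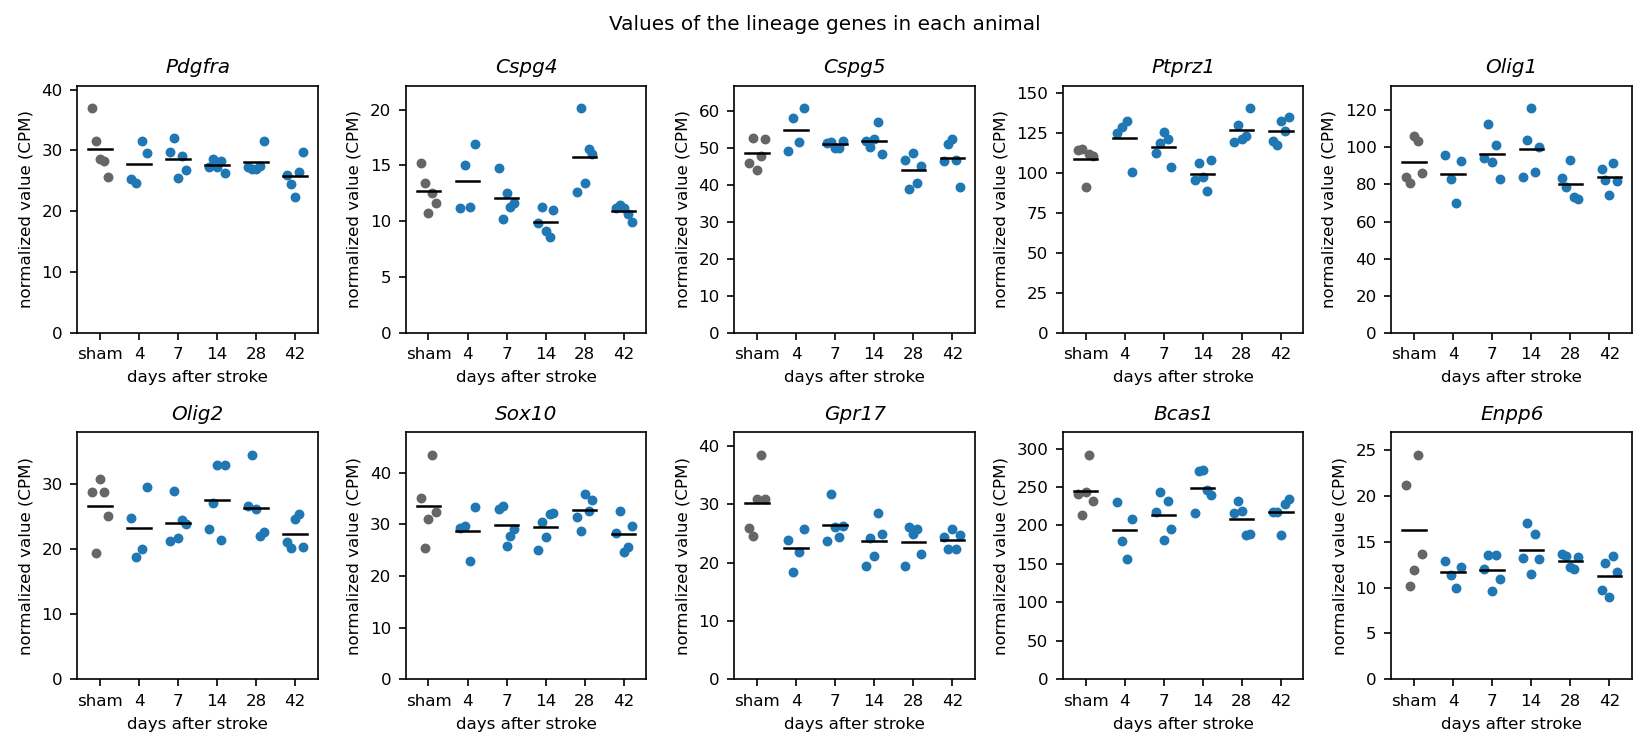
Normalized values (CPM, linear axis from 0) of the 10 lineage genes in every animal, by days after stroke, with sham in gray and a black line at each group mean. Ptprz1 lies above every sham animal at 28 and 42 dpi, Cspg4 dips at 14 dpi and peaks at 28 dpi, and Gpr17 has its highest value, 38.5, in a sham animal.

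Ptprz1, on chromosome 6 (22875502 to 23052916, + strand), encodes a receptor phosphatase that carries chondroitin sulfate chains and binds pleiotrophin. Its values in sham animals were 91.1, 110.4, 111.9, 114.5 and 115.1 CPM. At 28 dpi they were 119.3, 121.4, 122.8, 129.8 and 140.3 CPM, and at 42 dpi 117.2, 119.6, 126.2, 132.3 and 135.2 CPM. All 5 animals of both late groups lay above all sham animals. The log2 change against sham was 0.22 (SE 0.076, limma, adjusted p = 0.0304) at 28 dpi and 0.22 (SE 0.076, unadjusted p = 0.00725, limma adjusted p = 0.169) at 42 dpi, so that estimates of the same size fell on either side of the threshold. It was the only one of the 10 genes with no overlap between a stroke group and sham, which was the case for 9.9% of all genes at 28 dpi, 3.31% at 42 dpi, and 1.7%, 0.971% and 2.07% at the earlier time points in order. At 14 dpi the gene was at its lowest, with values from 88.5 to 107.8 CPM. The call at 28 dpi was lost without the sham animal A12-1, the one at 91.1 CPM (0.16, limma adjusted p = 0.130), without the 28 dpi animal A4-4 (0.19, adjusted p = 0.0888) and without A3-3 (0.22, adjusted p = 0.0721). After a correction for transcript length and GC content the estimate at 28 dpi was 0.07 (SE 0.060, limma adjusted p = 0.437). With values scaled to equal totals it was -0.56, in a scaling that moved the median of all genes by -0.71.

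Pleiotrophin itself, encoded by Ptn, moved the other way at 28 dpi, from 49.5 to 37.9 CPM (log2 change -0.38, SE 0.086, limma adjusted p = 0.00333). Mdk, which encodes the related ligand midkine, was at 5.38 CPM in sham, 7.04 CPM at 14 dpi and 4.06 CPM at 28 dpi (28 dpi against sham -0.39, limma adjusted p = 0.160). Ptprz1 is also an astrocyte gene, and of 10 astrocyte markers 1 rose at 28 dpi (Slc1a2, a glutamate transporter gene, by 0.29) and 4 fell, where 11.9% of all genes rose and 13% fell. Of the 10 marker estimates at 28 dpi 8 lay below 0, and their median was -0.18. The summed level of these markers ran from 3864 to 4314 CPM in sham and from 4000 to 4343 CPM at 28 dpi, with none of them at 0. Slc1a2 alone had a mean of 2407 CPM at 28 dpi, so the sum rests largely on the 1 marker that rose. The part of astrocytes in the Ptprz1 values was not tested.

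Gpr17, a receptor gene switched on for a short time as precursors commit, lies on chromosome 18 (31942997 to 31949636, - strand). Sham animals had 24.5, 26.0, 31.0, 31.0 and 38.5 CPM. At 28 dpi the values were 19.5, 21.4, 24.9, 25.7 and 26.2 CPM. These groups overlap, since the lowest sham animals lie within the upper part of the 28 dpi range. The log2 change at 28 dpi was -0.34 (SE 0.112, limma adjusted p = 0.0257). Estimates of nearly this size were seen at other times without passing: -0.41 (limma adjusted p = 0.287) at 4 dpi, -0.34 (0.381) at 14 dpi and -0.31 (0.179) at 42 dpi. The 7 dpi estimate was -0.17. The mean was 22.5 to 26.5 CPM in all stroke groups against 30.2 CPM in sham. Leaving out the sham animal A12-1, A12-2 or A12-3, or the 28 dpi animal A3-1 or A4-4, ended the call, with estimates from -0.33 to -0.25 and limma adjusted p values from 0.0556 to 0.0960. In GENCODE M21, 188 of the 5195 exon bases of Gpr17 overlap exons of Lims2 on the other strand. The library kit is not stated to keep the strand, so reads in that stretch cannot be told apart. Lims2, at 6.1 CPM in sham, fell to 4.48 CPM at 28 dpi (-0.43, limma adjusted p = 0.0278).

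Bcas1 and Enpp6, the other markers of committed cells, did not pass against sham at any time. Bcas1, a gene of early myelinating oligodendrocytes on chromosome 2 (170346991 to 170427845, - strand), was the most abundant of the 10, at 244 ± 28.9 CPM in sham (SD, n = 5). Its mean was 194 CPM at 4 dpi, 214 CPM at 7 dpi, 249 CPM at 14 dpi, 209 CPM at 28 dpi and 217 CPM at 42 dpi. The lowest estimate was at 4 dpi (-0.34, SE 0.103, limma adjusted p = 0.337), with 3 of 4 animals below the sham range. Antisense genes overlap 440 (Bcas1os1) and 34 (Bcas1os2) of its 3775 exon bases. Enpp6, which encodes a choline phosphodiesterase and lies on chromosome 8 (46986887 to 47096762, + strand), had sham values of 10.2, 11.9, 13.7, 21.2 and 24.5 CPM. The sham group therefore spans nearly the whole range of the stroke animals, whose values ran from 9.0 to 17.1 CPM, and the 2 highest sham values stood above all of these. The estimates of Enpp6 lay between -0.45 at 42 dpi (SE 0.163, limma adjusted p = 0.189) and -0.13 at 14 dpi.

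Among the transcription factor genes the levels stayed close to sham. Olig1 (chromosome 16, 91269772 to 91271933, + strand) encodes a factor of oligodendrocyte maturation and had log2 changes between -0.20 at 28 dpi and 0.10 at 14 dpi. Gm15966, on the other strand, overlaps 157 of its 2162 exon bases. Olig2 (chromosome 16, 91225550 to 91228677, + strand), needed to specify the lineage, ranged from -0.24 at 42 dpi to 0.04 at 14 dpi. Sox10 (chromosome 15, 79154913 to 79164490, - strand), a factor that activates myelin genes, ranged from -0.23 at 42 dpi to -0.02 at 28 dpi. The lowest limma adjusted p values against sham were 0.147 for Olig1, 0.451 for Olig2 and 0.325 for Sox10. For Olig2 at 28 dpi the 95% interval ran from -0.29 to 0.27, so a change of that size in either direction is within the error. For Schwann cells, which share Sox10, 3 markers were measured, and these summed to between 19.9 and 30.5 CPM in sham and between 17 and 26.5 CPM at 28 dpi.

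Of the surface genes, Pdgfra (chromosome 5, 75152292 to 75198215, + strand) was at 30.2 ± 4.32 CPM (SD, n = 5) in sham and had means from 25.7 to 28.6 CPM in the stroke groups. Its estimates were all below 0, from -0.07 at 7 dpi to -0.22 at 42 dpi (SE 0.086, limma adjusted p = 0.220). Cspg5, for neuroglycan C, lies on chromosome 9 (110243783 to 110262576, + strand) and ran from 54.9 CPM at 4 dpi (0.17, limma adjusted p = 0.900) to 44.0 CPM at 28 dpi (-0.14, adjusted p = 0.151), with 48.6 CPM in sham. Cspg4, for the NG2 proteoglycan, lies on the same chromosome (56865033 to 56899870, + strand) and was the member whose estimate changed most from one time point to another. It was -0.33 at 14 dpi (SE 0.122, limma adjusted p = 0.392) and 0.29 at 28 dpi (adjusted p = 0.0780). Without the sham animal A11-1 or the 28 dpi animal A3-1 or A4-1, the 28 dpi estimate of Cspg4 passed, at 0.34 to 0.36 with limma adjusted p values from 0.0297 to 0.0469. Apart from Cspg4, Bcas1, Gpr17 and Enpp6, no gene of the 10 had an estimate against sham beyond 0.25 in either direction.

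**Figure D2:**
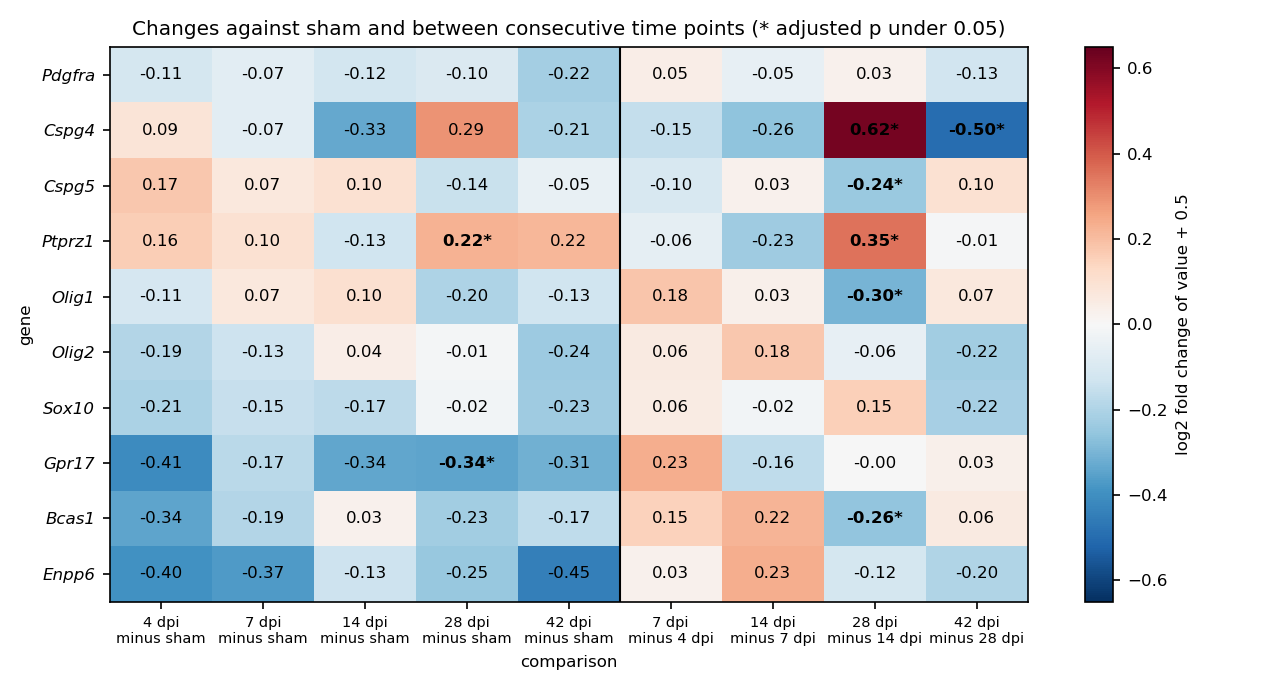
Log2 fold changes of value + 0.5 of the 10 lineage genes (rows) for each time point against sham (left of the line) and between consecutive time points (right of the line), with color and printed value giving the change and an asterisk an adjusted p under 0.05. Against sham the asterisks stand at Ptprz1 and Gpr17 at 28 dpi, and 5 of the 10 genes carry one for 28 dpi minus 14 dpi.

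Comparing consecutive time points shows where in the course a gene moved. Between 4 and 7 dpi and between 7 and 14 dpi 0 of the 10 genes passed, as did 0% of all genes in both steps (limma). At an unadjusted p under 0.05 there were 0 and 3 of the 10 genes, and 495 and 1010 of all genes. Between 14 and 28 dpi 5 of the 10 passed, in both directions: Cspg4 and Ptprz1 rose, while Cspg5, Olig1 and Bcas1 fell. In the same step 43% of all genes passed, 21% higher and 21.9% lower, so that 5 of 10 is a share close to that of the table. Between 28 and 42 dpi only Cspg4 passed, downwards, beside 1.94% of all genes.

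Cspg4 was at 8.6, 9.1, 9.8, 11 and 11.3 CPM at 14 dpi. At 28 dpi it was at 12.6, 13.4, 16.0, 16.5 and 20.1 CPM, and at 42 dpi at 9.9, 10.6, 11.2, 11.2 and 11.4 CPM. Every 28 dpi animal thus lay above every animal at 14 and at 42 dpi, whereas groups did not overlap for 22% of all genes in the first of these steps and for 2.56% in the second. The rise by 0.62 (SE 0.122, limma adjusted p = 0.000227) was the only change among the 10 genes beyond a fold of 1.5 (1.54-fold), and it kept its call without any single animal. In that step 2002 of all 16995 genes passed beyond this fold. The later fall was by 0.50 on the log2 scale (SE 0.122, limma adjusted p = 0.0358). That fall lost its call without the 28 dpi animal A3-3, A4-3 or A4-4 or the 42 dpi animal A1-1, A1-2, A1-4 or A3-4, with limma adjusted p values from 0.0647 to 0.141 and estimates from -0.51 to -0.41. It also did not pass after the length and GC correction (-0.31, limma adjusted p = 0.0959), with equal totals (-0.26, adjusted p = 0.787) or when both groups were fitted alone (-0.50, adjusted p = 0.168). Of the 12 pericyte and perivascular fibroblast markers, 3 rose from 14 to 28 dpi, Notch3 (0.79), Abcc9 (0.52) and Col1a2 (0.27), and 0 fell (limma), where 21% of all genes rose. Of the 12 estimates in that step 7 lay below 0, and their median was -0.03. Notch3 then fell by 0.50 on the log2 scale from 28 to 42 dpi (SE 0.137, limma adjusted p = 0.04999). Against sham 2 of the 12 rose at 28 dpi, Notch3 from 10.4 to 17.6 CPM and Col1a1 from 3.54 to 5.5 CPM, and 0 fell, where 11.9% of all genes rose and 13% fell. Their summed level was 158 to 185 CPM in sham, 169 to 187 CPM at 14 dpi and 157 to 195 CPM at 28 dpi, with none at 0. The part of pericytes in the Cspg4 values was not tested. Over the 29 animals, with group means subtracted, r with Rn18s-rs5 was highest for Cspg4 (0.54) and lowest for Cspg5 (-0.40), and the highest Cspg4 animal at 28 dpi, A3-3, also held the highest Rn18s-rs5 value of that group. With Rn18s-rs5 as a covariate the Cspg4 step from 14 to 28 dpi was 0.54 (limma adjusted p = 0.000584), whereas the difference from sham at 28 dpi was 0.05 (adjusted p = 0.871).

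For Ptprz1 the 14 dpi values were 88.5, 95.8, 97.5, 106.2 and 107.8 CPM, all below every 28 dpi animal. Its rise was by 0.35 (SE 0.076, limma adjusted p = 0.000511) and was called without any single animal left out. Cspg5 fell from 48.3, 50.3, 51.8, 52.4 and 57.1 CPM to 38.8, 40.5, 45.2, 46.8 and 48.6 CPM. These groups touch at a single pair of animals, and the change was -0.24 (SE 0.074, limma adjusted p = 0.0100). Of 8 neuron markers 3 fell in the same step, Nefl (-0.49), Snap25 (-0.42) and Stmn2 (-0.51), and 0 rose (limma), where 21.9% of all genes fell and 21% rose. Of the 8 estimates 6 lay below 0, and their median was -0.11. The summed level of the 8 markers was 4256 to 5466 CPM at 14 dpi and 3324 to 3788 CPM at 28 dpi, and none was at 0. These sums did not overlap, as was the case for 22% of all single genes in this step. Nefl (2324 to 1630 CPM) and Snap25 (1786 to 1345 CPM) held most of the sum. The part of neurons in the Cspg5 values was not tested. Olig1 went from 83.9, 86.7, 100.3, 104.1 and 121.1 CPM to 71.9, 73.5, 78.5, 83.5 and 93.3 CPM (-0.30, SE 0.101, limma adjusted p = 0.0177). Bcas1 went from 215.8, 239.7, 245.9, 271.4 and 272.6 CPM to 187.4, 188.9, 216.4, 218.3 and 231.9 CPM (-0.26, SE 0.097, limma adjusted p = 0.0346). For Olig1 4 of the 5 animals at 28 dpi lay below the 14 dpi range, and for Bcas1 2 of the 5 did, so both pairs of groups overlap. Bcas1 did not pass with quantile normalization (limma adjusted p = 0.0684) or median centring (adjusted p = 0.0665). Olig1 lost its call without the 14 dpi animal A5-4 (-0.23, limma adjusted p = 0.0800) or the 28 dpi animal A4-4 (-0.26, adjusted p = 0.0519), and Bcas1 without A5-3, A5-4 or A6-2 at 14 dpi or A4-3 or A4-4 at 28 dpi (limma adjusted p from 0.0525 to 0.0949).

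Transcript length moved with the direction of change in this step. Over all genes, the median length of the longest transcript was 4634 bases for genes that rose between 14 and 28 dpi and 2245 bases for those that fell. The same measure was 8121 bases for Cspg4 and 8068 bases for Ptprz1, the risers, and 7868 bases for Cspg5, 2952 bases for Bcas1 and 2162 bases for Olig1, the genes that fell. The part of transcript length in these changes was not tested for single genes. After correction of each animal's values for transcript length and GC content, Cspg4 still rose by 0.32 (SE 0.101, limma adjusted p = 0.0127), Ptprz1 was at 0.08 (SE 0.060, adjusted p = 0.270), and Cspg5 fell by 0.51 on the log2 scale (SE 0.083, adjusted p = 5.09e-05). Olig1 and Bcas1 kept their calls at -0.25 and -0.23. Pdgfra, at 0.03 as deposited, was at -0.21 (limma adjusted p = 0.0371).

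**Figure D3:**
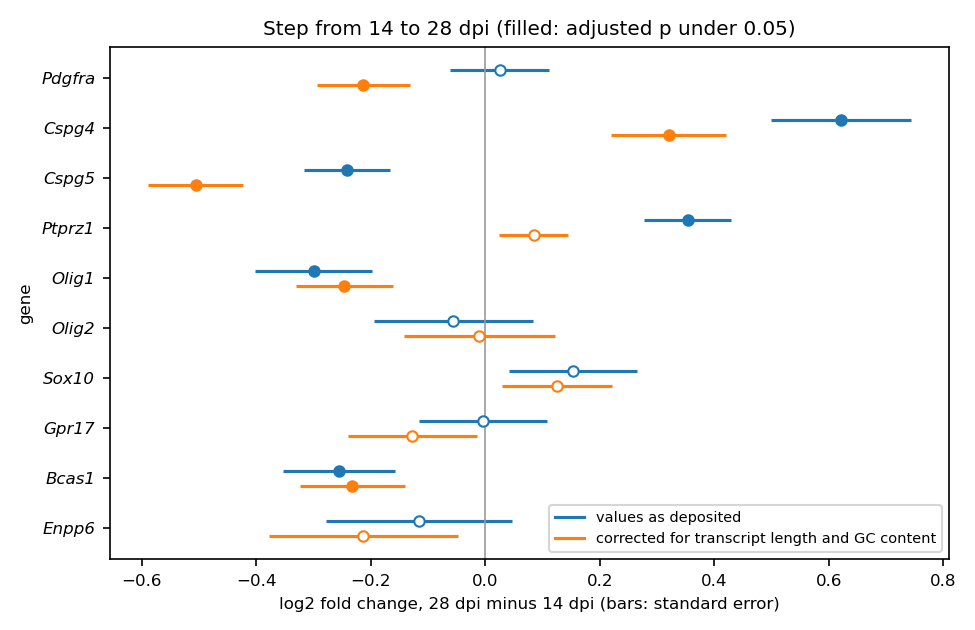
Log2 fold change from 14 to 28 dpi of each lineage gene (points, with bars of 1 standard error) for the deposited values in blue and after correction for transcript length and GC content in orange, filled where the adjusted p was under 0.05. The correction takes Ptprz1 from 0.35 to 0.08 and Cspg4 from 0.62 to 0.32, and moves Cspg5 from -0.24 to -0.51.

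Other genes of the lineage were read from 3 lists with 79 genes in the table: 26 surface and matrix genes, 30 transcription factors and regulators, and 23 genes of committed precursors and newly formed oligodendrocytes. As for the 10 genes, 0 of the 79 passed at 4, 7, 14 or 42 dpi (limma), with 11, 10, 15 and 30 of them at an unadjusted p under 0.05. Of all 16995 genes 0.106%, 0.0294%, 0.00588% and 0.0235% passed at these times, and 874, 992, 1973 and 2507 had such an unadjusted p. At 28 dpi 18 of the 79 rose, where 11.9% of all genes did, 9 fell, where 13% of all genes did, and 52 did not pass. After the length and GC correction 12 rose and 11 fell, where 25.6% of all genes passed in either direction. The median of the 79 went from 0.04 to -0.08 with that correction. Without that correction, surface and matrix genes numbered 6 up and 2 down, transcription factors and regulators 8 up and 2 down, and genes of committed cells 4 up and 5 down. With the ligands and partners added, the largest changes among the genes that passed at 28 dpi were in Sox9, a glial factor used by astrocytes and early precursors, at 7.82 CPM in sham and 13.1 CPM at 28 dpi (0.70, SE 0.128, limma adjusted p = 0.00139), and Tcf7l2, a Wnt pathway factor of newly formed oligodendrocytes, at 1.86 and 3.16 CPM (0.63, SE 0.178, adjusted p = 0.0124). These were the 2 SDEGs among the 79 at 28 dpi, where 789 of all 16995 genes were SDEGs. Next in size among those that passed were Samd4b (0.51), Myrf (0.50), the master regulator of myelin genes, Pcdh15 (0.42), Xylt1 (0.42), which starts the chondroitin sulfate chains of proteoglycans, Nfasc (0.42), Dscam (0.42) and the ligand gene Nrg1 (0.39), all higher, and Lims2 (-0.43), which was lower. Each of these 8 had a limma adjusted p between 0.00150 and 0.0381. With Rn18s-rs5 as a covariate all 10 of these named genes lost their calls. Their estimates kept their signs, from 0.25 (SE 0.170, limma adjusted p = 0.388) for Nrg1 to 0.69 (SE 0.162, adjusted p = 0.0548) for Sox9, with Lims2 at -0.47 (SE 0.180, adjusted p = 0.132). Nrg1 also lost its call after the length and GC correction, without the mean-variance trend, and without the sham animal A11-1, A12-1 or A12-3 or the 28 dpi animal A3-3, A4-3 or A4-4 (limma adjusted p from 0.0512 to 0.134). Lims2 also lost it when both groups were fitted alone, and without the sham animal A11-4 or A12-2 or the 28 dpi animal A4-3 or A4-4 (limma adjusted p from 0.0584 to 0.102).

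Where no listed gene passed, the smallest unadjusted p values belonged to Tmem176b and Fgfr2 at 4 dpi, Plxnb3 and Fgfr1 at 7 dpi, Cacng4 and Sema5a at 14 dpi, and Gria3 and Cacng4 at 42 dpi. Tmem176b came closest, with 10.7 CPM in sham and 17.1 CPM at 4 dpi (0.65, limma adjusted p = 0.0554), and the others had limma adjusted p values from 0.107 to 0.802. Among 17 ligands and partners of the 10 genes 1 rose and 1 fell at 28 dpi, Nrg1 and Ptn, each a smaller share than the 11.9% and 13% of all genes. Pdgfa, the ligand of the Pdgfra receptor, was at 15.3 CPM in sham and 13.8 CPM at 28 dpi (-0.15, limma adjusted p = 0.222). Between 14 and 28 dpi 28 of the 79 lineage genes rose, where 21% of all genes did, and 14 fell, where 21.9% of all genes did. Length moved with direction there too: the median longest transcript was 7635 bases for the 28 and 2487 bases for the 14. After the length and GC correction 13 rose and 15 fell in that step, where 38.9% of all genes passed in either direction.

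Of 20 mature oligodendrocyte and myelin genes 0 rose and 12 fell at 28 dpi, where 13% of all genes fell. With Rn18s-rs5 as a covariate 0 of the 20 passed, and their median was -0.37 in place of -0.34. All 20 estimates lay below 0 at both 28 and 42 dpi. Their median log2 change over the time points in order was -0.24, -0.20, -0.09, -0.34 and -0.33. At the times other than 28 dpi 0 of the 20 passed (limma), with 10, 7, 4 and 16 at an unadjusted p under 0.05. Of all 16995 genes 874, 992, 1973 and 2507 were under that limit at the same times, and 0.106%, 0.0294%, 0.00588% and 0.0235% passed. Cldn11, which encodes the claudin of myelin tight junctions, went from 138 to 92.8 CPM at 28 dpi (-0.58, SE 0.113, limma adjusted p = 0.00163). Mobp went from 1225 to 889 CPM (-0.47, adjusted p = 0.00473). After the length and GC correction 13 of the 20 were lower at 28 dpi, and 0 higher, where 25.6% of all genes passed in either direction. The difference between these 20 genes and the 10 lineage genes was not tested.

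**Figure D4:**
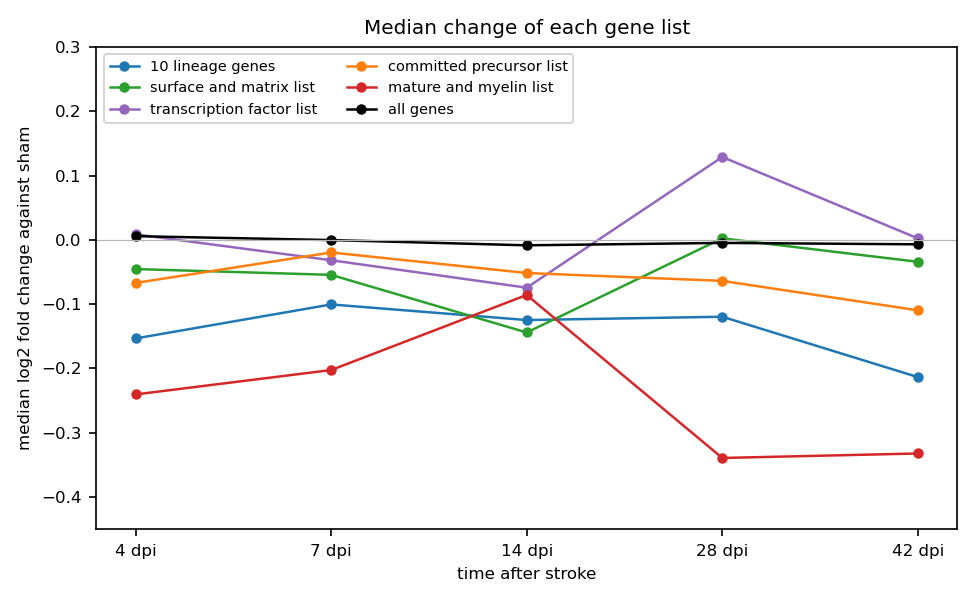
Median log2 fold change against sham at each time point for the 10 lineage genes, the 3 lineage lists, the 20 mature and myelin genes and all 16995 genes. The mature list is lowest at 28 and 42 dpi (-0.34 and -0.33), the transcription factor list is at 0.13 at 28 dpi, and all genes together stay near 0.

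The 10 genes did not vary as 1 unit from animal to animal. After subtracting group means, Pearson's r of log2 values over the 29 animals ranged from -0.29 to 0.79 across the 45 pairs, with a median of 0.09 and 26 pairs above 0. These values describe animals that share a dissection and a normalization. The closest pairs were Olig1 with Bcas1 (0.79), Sox10 with Enpp6 (0.66), Olig1 with Olig2 (0.63) and Bcas1 with Enpp6 (0.62). Every pair within the group from Olig1 to Enpp6, the transcription factors and the genes of committed cells, lay above 0, from 0.20 to 0.79. Many other genes were as close or closer. Among 15497 genes ranked by r with Olig1, Bcas1 was at place 5 but Enpp6 only at place 4307. Every pair with a surface gene lay between -0.29 (Cspg5 with Ptprz1) and 0.29 (Pdgfra with Enpp6).

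Genes most like each member were sought among 15497 genes with a mean of at least 1 CPM. Bcas1 was most like the myelin genes Mobp (r = 0.92) and Mbp (0.89), with Pea15a (0.90) between them. Enpp6 was closest to Anln (0.84), another gene of the mature list, followed by Pkp4 and Slc44a1 (both 0.81). Olig2 was closest to Nkx2-2 (0.81), a factor of the same lineage, followed by Pstpip1 and Nkd1 (both 0.68). Ptprz1 was closest to the astrocyte genes Slc1a2 (0.85) and Slc4a4 (0.84), with Ddx6 (0.84) beside them. Olig1 was closest to Shisa4, Cd81 and Tesc (0.82 to 0.80), Sox10 to Tyro3, Insc and Gna12 (0.87 to 0.79), and Cspg5 to Doc2a, Matk and Ncdn (0.85 to 0.80). Cspg4 was closest to Mcf2l, Pot1b and Gm26833 (0.81 to 0.76), Pdgfra to Mboat2, Fnip1 and Supt16 (0.78 to 0.77), and Gpr17 to Gpr3, Apba3 and Depdc7 (0.68 to 0.67). Against the mean of the mature list, r was 0.92 for Bcas1, 0.75 for Enpp6, 0.64 for Olig1 and 0.60 for Sox10, 0.43 for Olig2, 0.27 for Gpr17 and 0.14 for Pdgfra, and it was -0.17, -0.11 and -0.09 for Cspg4, Cspg5 and Ptprz1.

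**Figure D5:**
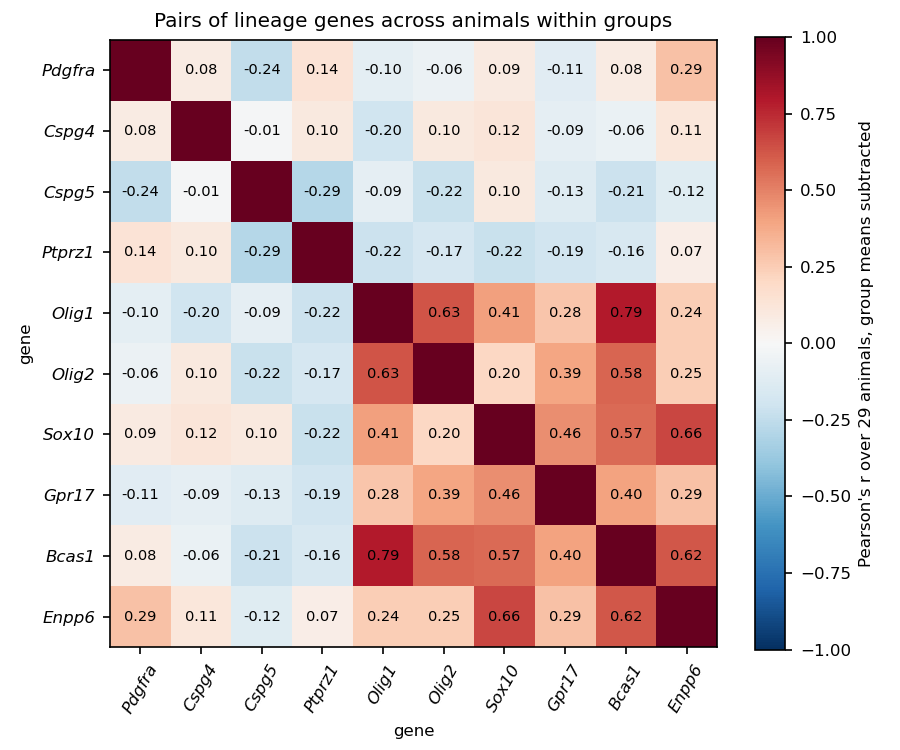
Pearson's r of log2(value + 0.5) between pairs of the 10 lineage genes over 29 animals with group means subtracted, from blue (negative) to red (positive). The block from Olig1 to Enpp6 is red throughout, from 0.20 to 0.79, and pairs with the surface genes Pdgfra to Ptprz1 stay between -0.29 and 0.29.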

How the data were processed

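Per the methods and the labels, ribosome-depleted RNA of 30 mice was sequenced, and the authors quantified reads with SALMON on mm10, summarised them with Tximport and normalized them with edgeR (edgeR 3.14.0 and R 3.4.1 in the submitters' processing notes), leaving out genes of low expression. The deposited score of a gene is this normalized CPM value, rounded to 0.1, and not a count, so count tests could not be applied. The deposited table also holds 30 columns of the authors' own comparisons (fold changes, p values, calls), which were not used.

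Groups were taken from the labels, with Ctrl read as sham from the methods. Values were analysed as log2(value + 0.5), a scale that understates changes of low genes, with limma 3.58.1 in R 4.3.3 (1 mean per group, mean-variance trend, Benjamini-Hochberg over 16995 genes). Python 3.11.15 was used for tables and figures. The method was tested on simulated data for 28 dpi against sham over 16995 genes with 200 changed: 29% were recovered at a log2 change of 0.3 (6 false calls) and 90.5% at 0.6 (10 false calls). The changed genes were drawn from the better expressed ones, and the simulated noise was independent between genes. In the data 24.9% of genes passed at 28 dpi, and animals differed in their totals and in Rn18s-rs5. The simulated rates therefore need not hold for the data.

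The members and lists were chosen with earlier results of these data known. Named genes are the 10 members, up to 10 listed lineage genes that passed at a time point by size of change (or the 2 with the smallest p where none passed), and the 3 genes most like each member. Ptn, Mdk, Pdgfa, Cldn11, Mobp, Mki67, Top2a and the marker genes of other cells were named after their values were seen. Gene lengths and overlaps came from GENCODE M21 (16919 genes matched), and promoters from RefSeq. The alternatives were other pseudocounts (1 and 0.05), quantile normalization, median centring, equal totals, no trend, fits of 2 groups, a mean of at least 1, the label unit as a random block, Rn18s-rs5 as a covariate and leaving out each animal. The length and GC correction was chosen after the data were seen.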

Additional observations from a re-analysis of the deposited data

Results flagged for a closer look

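An animal stood apart from the rest of its group in 2 of 60 combinations of gene and group, by the gap to its nearest neighbour relative to the range, where chance alone gives about 1 in 20. These were Pdgfra in the 28 dpi animal A4-4, at 31.6 CPM with the next animal at 27.5 CPM, and Ptprz1 in the sham animal A12-1, at 91.1 CPM with the next at 110.4 CPM. The sham animal bears on the Ptprz1 call at 28 dpi, which was lost without it.

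Effects against sham differed between consecutive time points for 5 genes, by the test of the step itself (limma). From 14 to 28 dpi the log2 differences were 0.62 for Cspg4, 0.35 for Ptprz1, -0.24 for Cspg5, -0.30 for Olig1 and -0.26 for Bcas1, and from 28 to 42 dpi the difference was -0.50 for Cspg4. The background share of all genes in these steps was 43% and 1.94%.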

How the results depend on the processing

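At 28 dpi against sham, where 2 of the 10 genes passed, 9 passed, all lower, once each animal was scaled to an equal total (where 66.2% of all genes passed), 0 with Rn18s-rs5 as a covariate (as for 0 of all genes) and 0 when sham and 28 dpi were fitted alone (where 13% of all genes passed). With the length and GC correction 3 passed, all lower (where 25.6% of all genes passed), and leaving out single animals gave 0 to 3. Equal totals moved the median of all genes at 28 dpi by -0.71. This scaling turned Ptprz1 from 0.22 to -0.56 there, which is still above that shift, and 1 of the 10 genes passed at 42 dpi, where 0.865% of all genes did. For 28 minus 14 dpi, 5 passed (where 43% of all genes did), 0 with equal totals (where 4.28% did) and 3 to 5 without single animals. The length and GC correction turned Pdgfra to -0.21 in that step. For 42 minus 28 dpi, 1 passed, 0 with equal totals, 0 with the length and GC correction, 0 when both groups were fitted alone, and 0 to 1 without single animals. Of all genes 0.0647% passed there with equal totals, 0.272% with the correction and 0.0118% when both groups were fitted alone.

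Of the 79 lineage genes 27 passed at 28 dpi (18 higher, 9 lower), 53 with equal totals (0 higher, 53 lower, median -0.70 in place of 0.04) and 0 with the Rn18s-rs5 covariate. Of all genes 24.9% passed there, 66.2% with equal totals and 0 with the covariate. Of the 20 mature genes 12 passed, 20 and 0 under the same settings, all lower. In the step from 14 to 28 dpi the counts were 42 and 9, with 1 and 0 at equal totals, and the 9 ran from 5 (without the 28 dpi animal A4-3) to 11 without single animals. Of all genes 43% passed in that step, and 4.28% at equal totals. The 9 lineage genes lower at 28 dpi were 5 with median centring and 5 when both groups were fitted alone, and the 14 lower in the step from 14 to 28 dpi were 9 with quantile normalization. The cause of these shifts was not tested. No paired analysis was possible because no animal number is shared between groups. The unit in the labels does span 28 and 42 dpi (A3), and with it as a random block the same counts of the 10 genes passed in every comparison, while 746 in place of 330 of all genes passed for 42 minus 28 dpi and 83 in place of 4 at 42 dpi. Depth is unknown, so no counting error could be given.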

Other observations

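At 4 dpi, when none of the 10 lineage genes passed (limma), Mki67, a marker of cycling cells, was at 1.36 CPM in sham and 4.12 CPM at 4 dpi (log2 change 1.29, SE 0.263, limma adjusted p = 0.0355), with every 4 dpi animal above every sham animal, and was back at 1.38 CPM at 7 dpi. Top2a went from 1.78 to 3.85 CPM at 4 dpi (0.91, limma adjusted p = 0.0540). Of 9 cell division genes only Mki67 passed at 4 dpi, with all 9 estimates above 0, where 0.106% of all genes passed and 8822 of 16995 estimates lay above 0. At the same time all 8 microglia markers had estimates above 0 (median 0.49, 0 passed, 5 at an unadjusted p under 0.05, as for 874 of all 16995 genes, limma), and which cells carried the Mki67 signal was not tested.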
